A study of Mus musculus with 38 samples.

Results

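The genes described here encode histone deacetylases, sirtuins, bromodomain proteins and ATP-dependent chromatin remodelers, and a rule on gene symbols set the members. A gene was a member if its symbol began with Hdac and a digit, was Sirt1 to Sirt7, was Brd or Chd with a single digit, or began with Smarc. The count files listed 48 such genes among 23420. They comprised 11 Hdac, 7 Sirt, 7 Brd, 14 Smarc and 9 Chd symbols.

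Histone acetylation loosens the contact between DNA and the histone core, and deacetylases reverse it. Bromodomain proteins bind acetylated lysines, and remodelers of the SWI/SNF, ISWI and CHD families use ATP to slide or evict nucleosomes. In neurons these enzymes are best known for setting how far activity-regulated genes and memory-related genes can be transcribed, and inhibitors of class I deacetylases are a classical tool in studies of fear memory.

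RNA was sequenced from dentate gyrus granule neurons of Arc::dVenus mice, in which the promoter of the activity-regulated gene Arc drives a destabilized fluorescent protein. Fear-conditioned (FC) mice received 3 tone and foot shock pairings, no-shock (NS) mice underwent the same protocol without shocks, and home-cage (HC) mice did not enter the chamber. All were single-housed males on a C57BL/6J background aged 8 to 12 postnatal weeks. From each mouse 10 fluorescent (dVenus+) cells and 10 neighbouring non-fluorescent (dVenus-) cells were aspirated, 24 h after training in FC and NS mice, and pooled into 1 library each, which gave 12 FC, 4 NS and 3 HC pairs and 38 libraries. Cells were picked by fluorescence, so a library reports 10 chosen cells of 1 animal and not the dentate gyrus as a whole.

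Between 1352288 and 18394761 reads per library were assigned to genes (median 8013005), and 7037 to 13286 genes had at least 1 read. Arc itself, the check of the labels, was higher in dVenus+ cells in every mouse of each group, but 3 FC dVenus- libraries (mice 6, 7 and 14) held 1276, 1095 and 2549 Arc reads. Sample identifiers of FC mice carried 3 different prefixes, which divide them into sets with 2, 4 and 6 animals, whereas the NS and HC mice shared another prefix, so a difference in level between FC and the other groups cannot be told apart from the set. FC mice 4 and 7 were left out in an alternative chosen after seeing the data, because their dVenus+ libraries were judged to stand apart. No measure of that is given here. Of the 10 granule cell markers tested in FC, 6 were called lower and 1 higher in dVenus+ cells, and their summed level ranged from 444 to 2950 normalized CPM (counts per library total after TMM scaling, with totals set to 1e+06) in dVenus+ and from 1369 to 3857 in dVenus- libraries. No granule cell marker was at 0 throughout a group. Of 8 microglia markers tested, 4 were called higher, with a summed level of 39.0 to 2021 normalized CPM in dVenus+ and 1.11 to 826 in dVenus- libraries. Nuclear-retained transcripts such as Malat1 were called higher for 2 of 5 and lower for 1 of 5, and summed to 18202 to 85851 against 4031 to 45978 normalized CPM. No marker was called among 4 oligodendrocyte, 3 astrocyte and 1 mossy or pyramidal cell genes tested, no endothelial marker passed the filter, and of 4 interneuron markers 1 was called higher and 1 lower. In NS mice Malat1 and Snhg11 were the markers called, both higher, and in HC mice none was. Of all genes, 0.0489% and 0% were called there, so few calls do not show the lack of a shift. Microglia markers were higher for 6 of 6 tested in NS and 6 of 7 in HC. Their median log2 fold changes were 4.28 and 4.34. Granule cell markers were lower for 8 of 10 in NS and 9 of 10 in HC. Nuclear-retained transcripts summed to medians of 39193 (dVenus+) against 9117 (dVenus-) normalized CPM in NS and 53168 against 4955 in HC. The part of these shifts in the results on the members was not tested.

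All 38 libraries held at least 10 reads for each of 10 members, among them Brd2, Brd9, Chd3, Chd4, Smarca2, Smarca4 and Smarcc2. Fewer than 19 libraries reached that count for 6 members, Hdac10, Sirt1, Sirt4, Sirt5, Smarcd2 and the pseudogene Smarca5-ps, which had 117 reads in total. Levels per kilobase used the joined exons of all annotated transcripts of a gene, which can be longer than a single transcript. The order below depends on these lengths. Expressed per kilobase of exon, the highest mean level over the 38 libraries was that of Smarca4, the SWI/SNF ATPase also known as BRG1, at 23.8 ± 17.8 normalized CPM per kb (SD, n = 38). Hdac3, the catalytic subunit of the NCoR and SMRT corepressor complexes, followed at 18.6 ± 19.1, and then the SWI/SNF scaffold Smarcc2 at 15.0 ± 8.67 and Smarcd1 at 15.0 ± 10.9 normalized CPM per kb. By group, Hdac3 averaged 25.3 in FC, 11.8 in NS and 0.598 normalized CPM per kb in HC. In HC it had 158 reads in all, with at least 10 in 2 of 6 libraries, and was not tested. FC cannot be told apart from its sets of mice, whereas NS and HC mice shared a prefix, and their difference in level was not tested. The lowest were Hdac9 at 0.930 ± 1.17, Sirt1 at 0.678 ± 1.20 and Smarca5-ps at 0.0724 ± 0.281 normalized CPM per kb. The SDs over libraries were close to the means, so neighbours in this order did not differ beyond their spread.

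**Figure D1:**
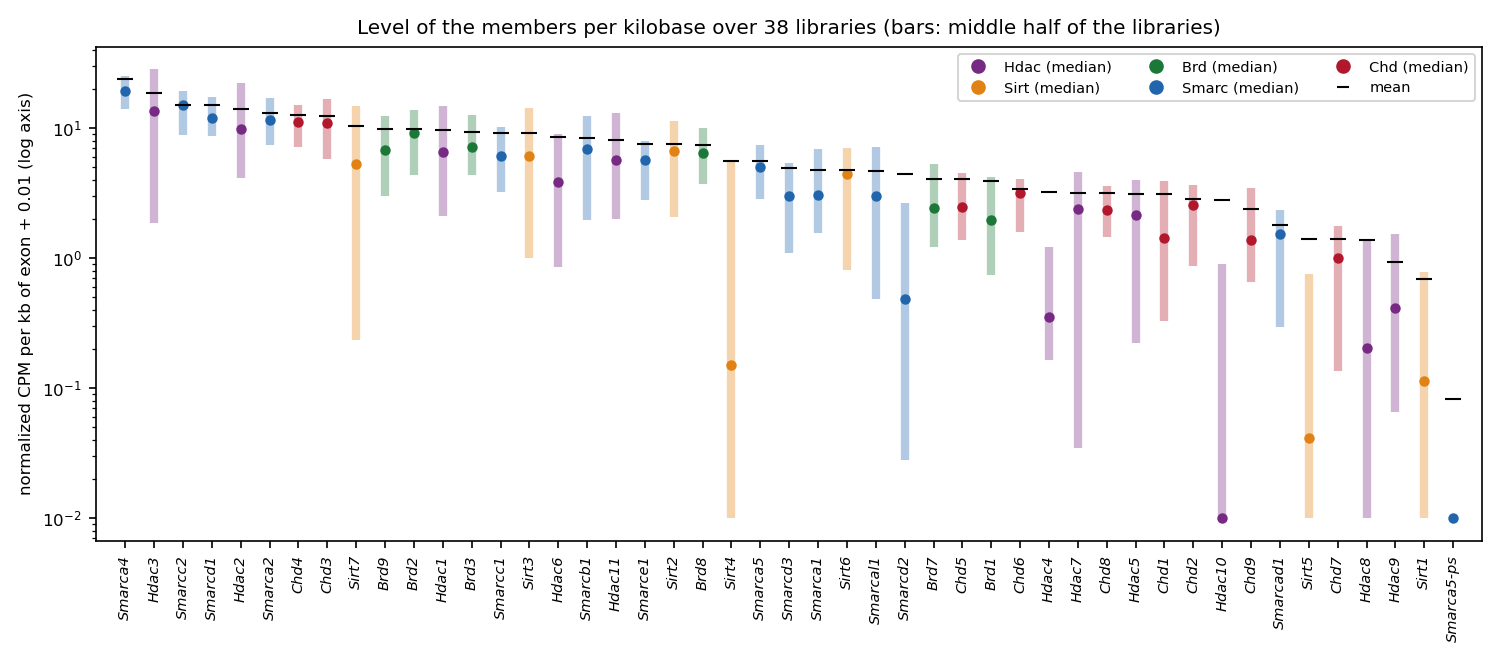
Level of the members shown, in normalized CPM per kilobase of exon plus 0.01 (log axis), ordered by the mean over the 38 libraries; dots are medians coloured by family, black dashes are means and pale bars span the lower to the upper quartile of the libraries. Smarca4 stands first with a mean of 23.8, and 10 members such as Smarca2 and Chd4 had at least 10 reads in every library, whereas for Hdac10 and Smarca5-ps the median was 0.

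The comparison of dVenus+ with dVenus- cells within mouse asks whether neurons that had recently expressed Arc differ from their neighbours. A gene was called when its adjusted p was below 0.05 and its absolute log2 fold change exceeded 1. In FC mice 45 of the 48 members passed the count filter, all but Hdac10, Sirt1 and Smarca5-ps, and 1 was called, Brd9, which was lower in dVenus+ cells. That is 2.22% of the members tested, beside 4.35% of all 9709 genes tested in FC (2.84% lower and 1.5% higher). An unadjusted p below 0.05 was reached by 7 members, 15.6%, beside 17.8% of all genes, and 1 of the 7 was higher and 6 were lower, beside 6.49% and 11.3% of all genes. The members' median log2 fold change was -0.18 and that of all genes -0.11, with 20 members above 0 and 25 below. In NS mice 43 members were tested and none was called by edgeR, beside 0.0489% of all genes. An unadjusted p below 0.05 was reached there by 4 members (9.3%, all genes 8.67%), of which 2 were higher and 2 lower, beside 4.21% and 4.46% of all genes, and the DESeq2 Wald test called 2, beside 8.13% of all genes. In HC mice 39 members were tested, none was called and none had an unadjusted p below 0.05, beside 0% and 7.01% of all genes, while DESeq2 called 2, beside 8.24% of all genes. Arc itself was not called in HC, at a log2 fold change of 8.33 ± 1.61 and an adjusted p of 0.455 in edgeR. It was higher there in 3 of 3 mice, so the lack of a call in HC does not show the lack of a difference. The DESeq2 test of the same FC libraries called 8 members instead of 1, beside 16.8% of all genes. Lower in dVenus+ cells by that test were Brd9, Chd3, Hdac7, Hdac11, Sirt5 and Smarcb1, and higher were Hdac8 and Smarcc1. Without the mouse as a block edgeR called 3 members in FC, Brd9, Chd3 and Sirt5, beside 5.02% of all genes.

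**Figure D2:**
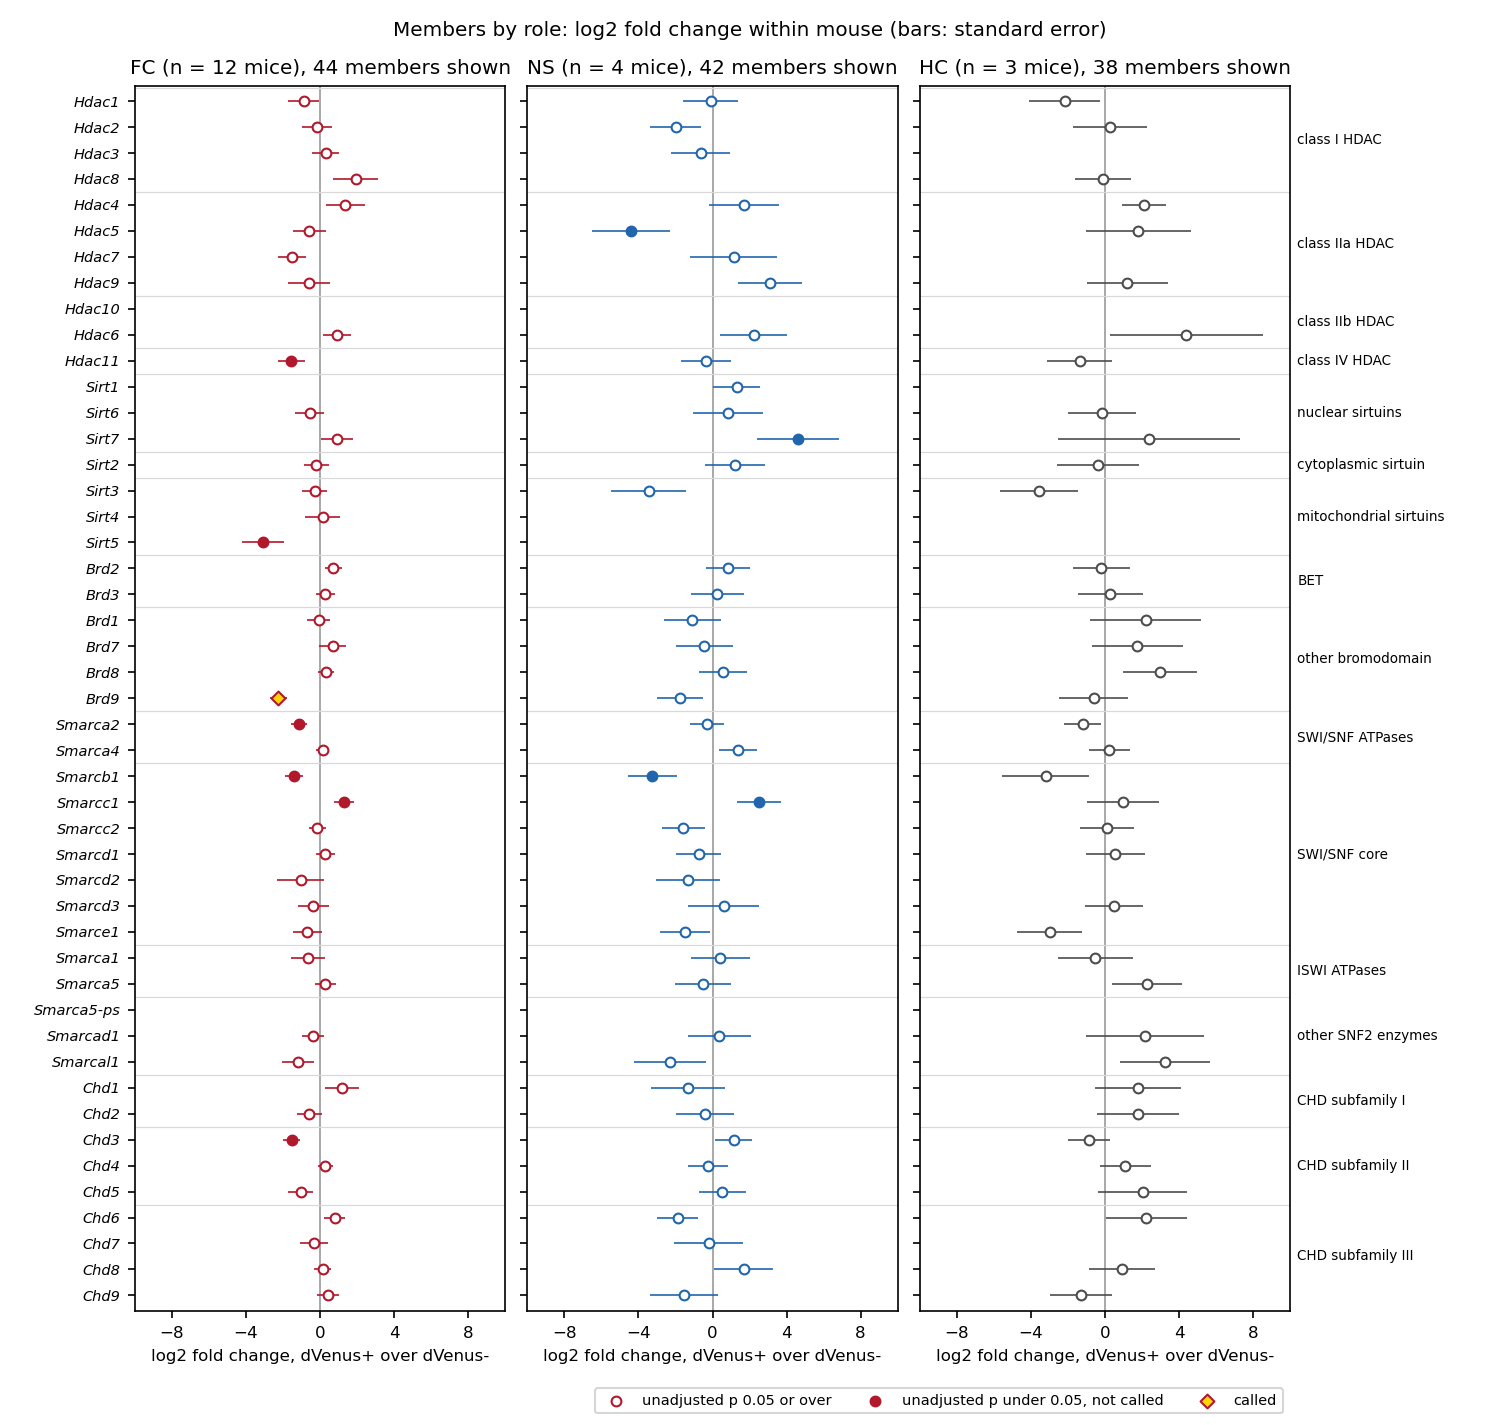
Log2 fold change of dVenus+ over dVenus- cells for the members shown, grouped by role, in FC (12 mice), NS (4 mice) and HC (3 mice); horizontal bars are standard errors, filled circles have an unadjusted p under 0.05 and the diamond marks the called member. Brd9 in FC at -2.26 is the 1 diamond, and the bars of NS and HC are wider than those of FC for most members.

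Brd9 is a bromodomain subunit that defines the non-canonical form of the SWI/SNF complex. It lies on chromosome 13 (GRCm38, chr13:73937811-73960895, plus strand). In FC mice its level ranged from 4.44 to 49.0 normalized CPM in dVenus+ cells (median 21.0) and from 33.2 to 262 in dVenus- cells (median 71.3). Every one of the 12 mice had less Brd9 in its dVenus+ library, although the ranges of the groups overlapped between 33.2 and 49.0. The fall was 4.78-fold, with a log2 fold change of -2.26 ± 0.45 (SE, 95% interval -3.15 to -1.37) and an adjusted p of 0.00397 in edgeR's quasi-likelihood test. The counts behind it were 2107 reads over the 12 dVenus+ and 13960 over the 12 dVenus- libraries. In a pool of 10 cells, fewer cells that express a gene cannot be told apart from less RNA in each of them.

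Each of the 3 sets of FC mice held the same order for Brd9. Mean levels were 26.8 against 151 normalized CPM in the set of 2 mice, 27.6 against 96.1 in the set of 4 and 18.7 against 105 in the set of 6. No mouse in any set had more Brd9 in its dVenus+ library. Fitted alone, the 6 mice gave a log2 fold change of -2.60 (adjusted p = 0.106 in edgeR) and the 4 mice -1.78 (adjusted p = 0.553), so the call was made over the pooled sets and in neither of these alone. Over all the alternatives tried, the adjusted p ran from 4.87e-08 to 0.553. Without the 3 mice named above for Arc reads in dVenus- cells, Brd9 stood at -2.39 with an adjusted p of 0.0104.

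NS mice 18, 19, 20 and 21 had 6.47, 42.5, 79.2 and 15.6 normalized CPM of Brd9 in dVenus+ cells, and 107, 95.2, 76.2 and 58.1 in dVenus- cells. Brd9 was lower in 3 of these 4 mice and the groups overlapped through mouse 20, with a log2 fold change of -1.74 ± 1.24 and an adjusted p of 0.692 in edgeR. HC mice 15, 16 and 17 had 77.1, 11.6 and 169 in dVenus+ cells, and 147, 133 and 13.9 in dVenus- cells. Here 2 of 3 mice were lower and mouse 17 was higher, with a log2 fold change of -0.60 ± 1.87 and an adjusted p of 0.945.

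**Figure D3:**
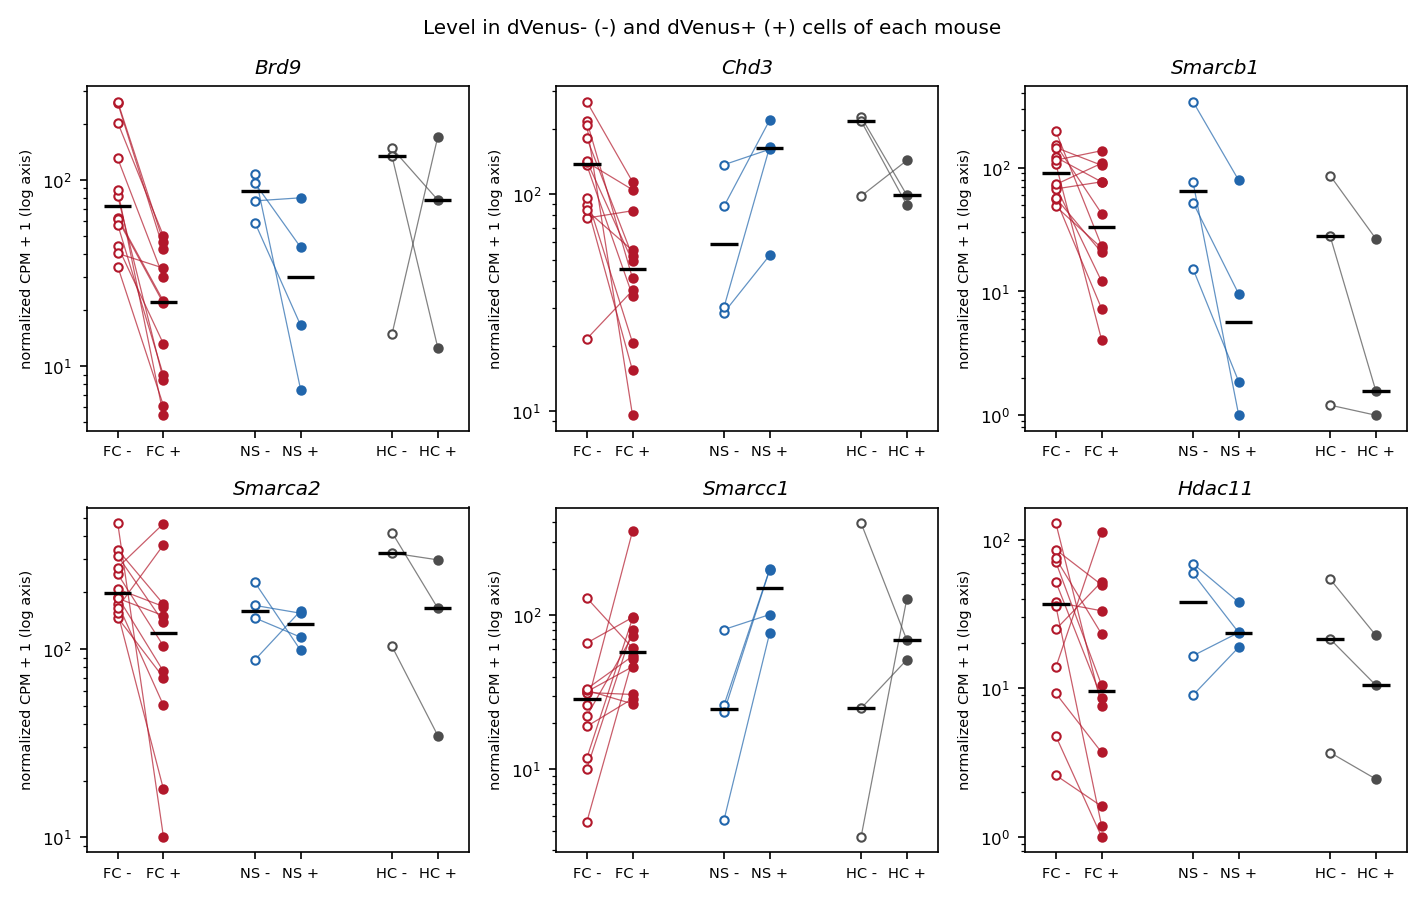
Level of 6 members in dVenus- (open) and dVenus+ (filled) cells, in normalized CPM plus 1 on a log axis; thin lines join the libraries of 1 mouse and black bars are medians of FC (12 mice), NS (4 mice) and HC (3 mice). All 12 FC lines of Brd9 go down, 10 of 12 do for Chd3, Smarca2 and Hdac11, 9 of 12 do for Smarcb1, and 9 of 12 go up for Smarcc1.

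Brd9 starts 26 bases from Trip13, a gene on the opposite strand, so the stretch between the starts lies directly upstream of both. It is shown because it is the immediate upstream sequence of the 1 called member, read on the plus strand (GRCm38.p6, chr13:73937785-73937810), with capitals marking the core CCGGAA that ETS transcription factors bind.
Brd9: gccccaccctgacCCGGAAgcacttg
Trip13 did not pass the count filter in FC, NS or HC, and it was at 0 in 10 dVenus+ and 11 dVenus- libraries of the 12 FC mice. The annotated antisense gene Gm41002 overlaps the Brd9 locus, taken as a whole with its introns. Smart-seq2 reads do not mark the strand, so reads from any shared stretch cannot be told apart by strand. An effect on the counts was not tested.

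No other bromodomain gene was called. Brd8, a subunit of the TIP60 acetyltransferase complex, ranged from 14.8 to 195 normalized CPM in dVenus+ cells of FC mice (median 107) and from 35.8 to 180 in dVenus- cells (median 65.7). With 6 mice on each side of 0 the groups overlapped, at a log2 fold change of 0.32 ± 0.43 (adjusted p = 0.767 in edgeR), or -0.03 without TMM scaling. Brd1 and Brd7, subunits of an acetyltransferase complex and of the polybromo SWI/SNF complex, had log2 fold changes of -0.07 ± 0.63 and 0.68 ± 0.74. The BET proteins Brd2 and Brd3 carry paired bromodomains and couple acetylated promoters to transcript elongation. Brd2 ranged from 29.6 to 190 normalized CPM in dVenus+ cells (median 87.9) and from 14.5 to 167 in dVenus- cells (median 46.6). Values were higher in 9 of 12 mice with overlapping groups, and the log2 fold change of 0.72 ± 0.45 did not pass (adjusted p = 0.423). Brd3 stood at 0.27 ± 0.51, and at -0.21 without TMM scaling.

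The SWI/SNF ATPases Smarca2 and Smarca4 are alternative motors of the same complex. Smarca2 ranged from 9.06 to 463 normalized CPM in dVenus+ cells of FC mice (median 120) and from 146 to 466 in dVenus- cells (median 198). In 10 of 12 mice it was lower, with mice 7 and 14 the other way, and the groups overlapped. The log2 fold change of -1.16 ± 0.44 did not pass (adjusted p = 0.135 in edgeR), but it did without TMM scaling, at -1.59 with an adjusted p of 0.0425 (range over all alternatives 0.0425 to 0.622). Smarca4 ranged from 89.3 to 633 normalized CPM in dVenus+ cells (median 134) and from 71.1 to 392 in dVenus- cells (median 127). In 7 mice it was higher and in 5 lower, at 0.14 ± 0.36 on the log2 scale and at -0.27 without TMM scaling. In NS and HC mice Smarca4 stood at 1.39 ± 1.02 and 0.23 ± 1.11, higher in 4 of 4 and 3 of 3 mice, and passed in neither. For Smarca2 the NS mice 18 to 21 had 97.5, 154, 159 and 115 normalized CPM in dVenus+ and 225, 170, 86.7 and 145 in dVenus- cells, and HC mice 15 to 17 had 164, 33.7 and 297 against 415, 102 and 323. Levels were lower in 3 of 4 NS and 3 of 3 HC mice, with log2 fold changes of -0.31 ± 0.90 and -1.20 ± 1.00 that did not pass.

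Among the SWI/SNF core subunits Smarcb1 and Smarcc1 stood on opposite sides of 0. Smarcb1, a subunit of the canonical and polybromo complexes that the non-canonical form lacks, ranged from 3.08 to 136 normalized CPM in dVenus+ cells of FC mice (median 32.0) and from 47.6 to 196 in dVenus- cells (median 89.2). It was lower in 9 of 12 mice, and the 3 exceptions all belonged to the set of 6 mice, where means were 77.5 and 108 normalized CPM. Its log2 fold change was -1.42 ± 0.51 with an adjusted p of 0.112 in edgeR. In NS mice 18 to 21 Smarcb1 stood at 78.0, 0, 0.865 and 8.53 normalized CPM in dVenus+ cells, and at 340, 75.4, 14.2 and 51.2 in dVenus- cells. In HC mice 15 to 17 it stood at 25.6, 0 and 0.566 against 85.1, 0.207 and 26.9. All 4 NS and all 3 HC mice were lower in dVenus+ cells while the groups overlapped, and the log2 fold changes of -3.26 ± 1.32 and -3.19 ± 2.35 had adjusted p-values of 0.510 and 0.746 in edgeR. Over all alternatives the adjusted p of Smarcb1 in NS ran from 0.0212 to 0.991.

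Smarcc1, a scaffold subunit, ranged from 25.6 to 349 normalized CPM in dVenus+ cells of FC mice (median 56.8) and from 3.56 to 128 in dVenus- cells (median 27.8). It was higher in 9 of 12 mice and the groups overlapped, with a log2 fold change of 1.28 ± 0.56 and an adjusted p of 0.211 in edgeR. NS mice 18 to 21 had 75.6, 197, 196 and 99.9 in dVenus+ against 3.69, 25.1, 22.5 and 79.6 in dVenus- cells, so all 4 were higher, mouse 21 by the least, and the groups overlapped through its dVenus- library. There the log2 fold change was 2.52 ± 1.18 with an adjusted p of 0.570. HC mice 15 to 17 had 50.4, 67.9 and 127 against 23.9, 394 and 2.66 normalized CPM, with 2 of 3 higher and mouse 16 far lower, and a log2 fold change of 0.97 ± 1.96. Dhx30 overlaps the Smarcc1 locus, taken as a whole with its introns, and an effect on the counts was not tested. Smarcc2, the paralogous scaffold, ranged from 14.7 to 128 (median 87.0) against 31.5 to 210 normalized CPM (median 89.7) in FC. It was at -0.15 ± 0.44, with 5 mice higher and 7 lower. The remaining core subunits Smarcd1, Smarcd2, Smarcd3 and Smarce1 lay between -1.04 and 0.29 on the log2 scale in FC, and none reached an unadjusted p of 0.05.

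ISWI motors and the more distant SNF2 enzymes gave no call. Smarca5, the main ISWI ATPase, ranged from 9.25 to 159 normalized CPM (median 40.7) in dVenus+ and from 1.59 to 92.2 (median 49.2) in dVenus- cells of FC mice. In 5 mice it was higher and in 7 lower, at 0.29 ± 0.57 on the log2 scale and -0.06 without TMM scaling. In HC mice 15 to 17 Smarca5 had 49.6, 40.4 and 70.5 normalized CPM in dVenus+ against 0.369, 16.5 and 31.2 in dVenus- cells, higher in 3 of 3, at 2.27 ± 1.90 and an adjusted p of 0.772 in edgeR. Smarce1, an HMG-box subunit of SWI/SNF, had 9.46, 0.481 and 17.8 against 22.2, 349 and 53.8 in the same mice, lower in 3 of 3, at -2.99 ± 1.75 and an adjusted p of 0.723 in edgeR. These were the 2 cases among the members tested in FC, NS and HC in which the dVenus+ and dVenus- values did not overlap. Both were in HC, with 3 libraries of each cell type, and were singled out after their values were seen. The share of all genes without overlap was not computed, so the count is not a result about the members. Neither passed, beside 0% of all genes called in HC. Smarca1, the ISWI paralogue, stood at -0.67 ± 0.91 in FC. Smarcal1, an annealing helicase that acts at stalled replication forks, ranged from 0 to 151 (median 15.1) against 0 to 82.5 normalized CPM (median 27.8). It was lower in 9 of 12 mice, with a log2 fold change of -1.18 ± 0.85 and an adjusted p of 0.505 in edgeR. Smarcad1 stood at -0.38 ± 0.62.

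Of the CHD remodelers, Chd3 came closest to a call. Chd3, Chd4 and Chd5 are the alternative ATPases of the NuRD complex, which joins a remodeler to the deacetylases Hdac1 and Hdac2. In FC mice Chd3 ranged from 8.56 to 113 normalized CPM in dVenus+ cells (median 44.0) and from 20.5 to 267 in dVenus- cells (median 138). Of the 12 mice 10 were lower, the exceptions being mice 4 and 10, and the groups overlapped. The log2 fold change was -1.52 ± 0.46 with an adjusted p of 0.0565 in edgeR. Without mouse 4 it was called, with an adjusted p of 0.0272 in edgeR, and over all alternatives the adjusted p ran from 0.00358 to 0.724. Mean levels in the sets of 2, 4 and 6 mice were 27.2 against 153, 47.97 against 97.9 and 59.6 against 160 normalized CPM.

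For Chd3 the NS mice lay on the other side of 0. Mice 18 to 21 had 51.4, 161, 219 and 165 normalized CPM in dVenus+ cells and 27.4, 136, 87.1 and 29.1 in dVenus- cells, so all 4 were higher, with overlapping groups, a log2 fold change of 1.13 ± 0.99 and an adjusted p of 0.755 in edgeR. HC mice 15 to 17 had 143, 98.2 and 88.3 against 97.2, 227 and 217, with 2 of 3 lower and -0.86 ± 1.14. The difference of the contrast between FC and NS was -2.74 ± 0.97 on the log2 scale, with an unadjusted p of 0.00871 and an adjusted p of 0.876 in edgeR's interaction test over 14075 genes.

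Chd4, the best known of the NuRD ATPases, ranged from 68.3 to 320 normalized CPM in dVenus+ cells (median 102) and from 35.5 to 228 in their dVenus- neighbours of FC mice (median 90.2). It was higher in 7 of 12 mice at 0.29 ± 0.39, and at -0.14 without TMM scaling. Chd5, the neuronal form, ranged from 0.412 to 52.9 (median 17.9) against 7.67 to 88.5 normalized CPM (median 24.9). Lower in 10 of 12 mice, it had a log2 fold change of -1.05 ± 0.68 and an adjusted p of 0.452 in edgeR. Chd2 of subfamily I ranged from 0 to 200 normalized CPM (median 40.5) against 24.9 to 94.5 (median 36.6) and was lower in 8 of 12 mice, at -0.58 ± 0.67. Chd1, its paralogue, stood at 1.19 ± 0.92. Chd6 of subfamily III, the group that holds the developmental disorder genes Chd7 and Chd8, ranged from 3.08 to 158 (median 66.7) against 2.00 to 95.2 normalized CPM (median 48.6). Its log2 fold change was 0.79 ± 0.56, and Chd7, Chd8 and Chd9 lay between -0.31 and 0.41. In NS mice 18 to 21 Chd6 had 65.4, 38.1, 29.4 and 2.76 normalized CPM in dVenus+ against 280, 135, 73.0 and 11.4 in dVenus- cells, lower in 4 of 4 with overlapping groups, at -1.88 ± 1.11 and an adjusted p of 0.623 in edgeR. HC mice 15 to 17 had 37.3, 134 and 147 against 78.5, 29.7 and 0, with 2 of 3 higher, at 2.23 ± 2.20 and an adjusted p of 0.787 in edgeR.

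None of the class I deacetylases passed the test. Hdac1 and Hdac2, the paired catalytic subunits of the Sin3, NuRD and CoREST complexes, had log2 fold changes of -0.89 ± 0.85 and -0.18 ± 0.82 in FC mice. Hdac1 ranged from 0 to 62.3 normalized CPM in dVenus+ cells (median 17.6) and from 0.111 to 137 in their dVenus- neighbours (median 42.5), with 7 of 12 mice lower. Hdac2 ranged from 0 to 103 (median 39.6) against 1.34 to 162 normalized CPM (median 54.5), with 7 of 12 mice higher despite the negative fitted value. Hdac3 ranged from 1.23 to 299 (median 103) against 0.222 to 257 normalized CPM (median 75.2), and stood at 0.29 ± 0.72, or -0.05 without TMM scaling. The 95% interval of the difference reached from -2.55 to 0.78 for Hdac1, from -1.78 to 1.42 for Hdac2 and from -1.12 to 1.70 for Hdac3. For Hdac2 and Hdac3 these intervals pass a log2 fold change of 1 on both sides of 0. Hdac8, which acts on cohesin, had a median of 4.96 against 0.628 normalized CPM, with a log2 fold change of 1.93 ± 1.22 and an adjusted p of 0.434 in edgeR.

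Class IIa deacetylases shuttle between nucleus and cytoplasm with neuronal activity and bind MEF2 factors. Hdac4 ranged from 0 to 727 normalized CPM in dVenus+ cells of FC mice (median 8.92) and from 0 to 89.4 in dVenus- cells (median 4.52). Higher in 8 of 12 mice, it stood at 1.35 ± 1.05 on the log2 scale (adjusted p = 0.550 in edgeR). Hdac5 ranged from 0 to 172 (median 22.5) against 0 to 162 normalized CPM (median 26.8) in FC, at -0.57 ± 0.88. In NS mice 18 to 21 Hdac5 had 0, 1.76, 2.60 and 1.00 normalized CPM in dVenus+ and 0.321, 13.4, 45.5 and 47.1 in dVenus- cells. All 4 were lower, and mouse 18 was near 0 in both cell types, so the groups overlapped. The NS log2 fold change was -4.42 ± 2.12 with an adjusted p of 0.572 in edgeR, on 22 reads in the dVenus+ libraries in total. HC mice 15 to 17 had 0.278, 52.0 and 2.27 against 14.6, 0 and 0 normalized CPM of Hdac5, at 1.80 ± 2.83. Hdac7 was lower in 10 of 12 FC mice at -1.53 ± 0.76 (adjusted p = 0.292), and Hdac9 stood at -0.60 ± 1.15.

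Hdac6, a cytoplasmic tubulin deacetylase of class IIb, ranged from 0 to 342 normalized CPM (median 41.5) in dVenus+ and from 2.94 to 110 (median 17.3) in dVenus- cells of FC mice. Higher in 8 of 12 mice, it stood at 0.91 ± 0.75 and an adjusted p of 0.578 in edgeR. Hdac11, the sole class IV enzyme, which removes fatty acyl groups from lysine, ranged from 0 to 111 (median 8.54) against 1.59 to 128 normalized CPM (median 35.8). Lower in 10 of 12 FC mice, it stood at -1.56 ± 0.74 on the log2 scale, and did not pass (adjusted p = 0.260). NS mice 18 to 21 had 22.7, 17.9, 22.7 and 36.9 normalized CPM of Hdac11 in dVenus+ against 58.2, 7.98, 15.5 and 67.9 in dVenus- cells, 2 higher and 2 lower, at -0.36 ± 1.36. In HC mice 15 to 17 the values were 9.46, 1.44 and 21.7 against 20.4, 2.69 and 53.2, lower in 3 of 3 with overlapping groups, at -1.37 ± 1.77. The antisense gene Gm14573 overlaps Hdac11. Hdac10, the other class IIb enzyme, was listed with no read in 21 of the 38 libraries.

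Sirtuins use NAD to remove acetyl and other acyl groups and are divided by where they reside in the cell. Sirt7, which resides in the nucleolus, ranged from 0 to 258 normalized CPM in dVenus+ cells of FC mice (median 60.8) and from 0 to 134 in dVenus- cells (median 22.4). Higher in 8 of 12 mice with overlapping groups, it stood at 0.91 ± 0.86 on the log2 scale. NS mice 18 to 21 had 59.9, 83.2, 111 and 2.51 in dVenus+ against 0, 0, 0.807 and 50.6 normalized CPM in dVenus- cells. Here 3 of 4 were higher and mouse 21 was lower, and the log2 fold change of 4.61 ± 2.21 had an adjusted p of 0.572 in edgeR (range over all alternatives 0.000552 to 0.991). HC mice 15 to 17 had 144, 0 and 18.3 against 0, 0 and 70.0, at 2.37 ± 4.92. Mafg overlaps the Sirt7 locus. Protein-coding genes also overlap the loci of Brd2, Hdac7, Sirt2, Sirt3, Smarcd1 and Smarcd3, and antisense genes overlap those of further members such as Smarca2. Sirt1, the nuclear sirtuin most studied in the brain, stayed below the count filter in FC, with a median of 2.84 normalized CPM in dVenus+ and 0.172 in dVenus- cells and 8 mice higher, 3 lower and 1 at 0 in both. Sirt6 stood at -0.57 ± 0.80.

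Cytoplasmic Sirt2, a tubulin deacetylase, ranged from 1.90 to 88.4 normalized CPM (median 39.1) against 2.87 to 130 (median 31.8) in FC, at -0.21 ± 0.68. Sirt3, the main deacetylase of mitochondria, ranged from 0 to 224 (median 40.2) against 5.73 to 167 normalized CPM (median 45.3), at -0.29 ± 0.69 and with 6 mice on each side. For Sirt3 all 4 NS mice were lower, at -3.44 ± 2.02 with an adjusted p of 0.621 in edgeR, and so were all 3 HC mice, at -3.56 ± 2.12 with an adjusted p of 0.729. Only 1 of 4 NS and 1 of 3 HC dVenus+ libraries held at least 10 Sirt3 reads. In NS mouse 19 Sirt3 was near 0 in both cell types, at 0.293 against 0.371 normalized CPM. Sirt5, a mitochondrial enzyme that removes succinyl groups, ranged from 0 to 7.45 normalized CPM in dVenus+ cells (median 0) and from 0 to 70.0 in dVenus- cells (median 4.51). It was lower in 9 of 12 mice, higher in 1 and at 0 in both cell types in 2. Its 112 reads in dVenus+ against 2341 in dVenus- libraries gave -3.08 ± 1.14 on the log2 scale and an adjusted p of 0.126 in edgeR (range over all alternatives 0.00135 to 0.316). Without mouse 7, the 1 mouse in which it was higher, the log2 fold change was -4.05 with an adjusted p of 0.0281 in edgeR. Sirt5 was not tested in NS and HC mice, where it was at 0 in 2 of 4 NS and 3 of 3 HC dVenus+ libraries, and in 2 of 4 and 2 of 3 dVenus- libraries. Sirt4 stood at 0.14 ± 0.95 in FC.

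A single edgeR fit over all 38 libraries tested whether the dVenus contrast of a member depended on training. None of the 47 members tested reached an adjusted p below 0.05 in edgeR for FC against NS, FC against HC or NS against HC, beside 0, 0 and 0.0071% of all 14075 genes tested. An unadjusted p below 0.05 was reached by 3, 1 and 1 members, Chd3, Hdac10 and Sirt4 for FC against NS, Smarcal1 for FC against HC and Sirt4 for NS against HC, beside 5.42%, 6.34% and 4.89% of all genes. The DESeq2 interaction test put 4, 8 and 4 members past an adjusted p of 0.05, beside 8.47%, 11.2% and 9.51% of all genes. In edgeR's interaction test Brd9 stood at -0.56 ± 1.21 for FC against NS (unadjusted p = 0.644) and -1.78 ± 1.58 for FC against HC (unadjusted p = 0.272). By that test the fall of Brd9 in FC was not shown to differ from the NS and HC contrasts. Its DESeq2 interaction values are not given here.

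The partners of these enzymes were examined from lists of 71 genes, of which 67 were in the files and 59 were tested in FC. Of the 59, 2 were called, 3.39% beside 4.35% of all genes, and they were Bcl11a and Bcl11b, zinc-finger transcription factors that are also SWI/SNF subunits of neural and lymphoid cells. Bcl11b averaged 75.1 ± 95.1 normalized CPM in dVenus+ and 207 ± 64.5 in dVenus- cells of FC mice (SD, n = 12). It was lower in 11 of 12 mice, with a log2 fold change of -1.99 ± 0.45 and an adjusted p of 0.0102 in edgeR. Bcl11a averaged 12.7 ± 13.8 against 55.9 ± 28.6 normalized CPM and was lower in 10 of 12 mice, at -2.62 ± 0.74 with an adjusted p of 0.0379. In NS and HC mice neither passed, with log2 fold changes of -1.32 and -0.95 for Bcl11b and of -1.31 and 0.49 for Bcl11a. The call of Bcl11a was lost without any 1 of 8 mice (1, 4, 5, 7, 9, 11, 12 or 14), with adjusted p-values of 0.0577 to 0.0918 in edgeR, and over all alternatives its adjusted p ran from 3.73e-05 to 0.501. Bcl11b kept its call without any 1 mouse and lost it in the set of 4 and in the set of 6 fitted alone, with adjusted p-values of 0.298 and 0.463 in edgeR. Both belong to the list of other SWI/SNF subunits, where they were the 2 calls among 15 tested, 13.3%, and 6 of the 15 had an unadjusted p below 0.05 (1 higher and 5 lower, 40.0%, beside 17.8% of all genes), against 16.9% of the 59. This list was singled out after its values were seen, so its share is a description. None was called among 20 corepressor partners such as Sin3a and Ncor1, 10 ISWI and INO80 partners, 9 histone acetyltransferases such as Crebbp and Ep300, and 5 partners of BET elongation. By edgeR none of 52 list members in NS and of 55 in HC was called, with an unadjusted p below 0.05 in 11.5% and 3.64%, beside 8.67% and 7.01% of all genes. DESeq2 called 5 in each and 10 in FC, beside 8.13%, 8.24% and 16.8% of all genes. Markers of granule cells moved in the same direction as Bcl11a, Bcl11b and Brd9 in FC, with 6 of 10 called lower, and their part was not tested.

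The summed level of all 48 members gives the 5 families as a whole. In FC mice it was 2396 ± 636 normalized CPM in dVenus+ and 2438 ± 640 in dVenus- cells (SD, n = 12), higher in 5 mice and lower in 7. NS mice had 2111 ± 570 against 2205 ± 880 and HC mice 2184 against 2170 normalized CPM, with 2 of 4 and 2 of 3 mice higher. These sums differed by less than the spread between mice. This outcome depended on the scaling of the libraries. The median TMM factor in FC was 1.21 for dVenus+ and 1.33 for dVenus- cells, that in NS 0.655 and 1.14, and that in HC 0.602 and 1.48. Without them the sum in FC was 2446 against 3164 CPM, lower in 10 of 12 mice, and it was lower in 4 of 4 NS and 3 of 3 HC mice. The median log2 fold change of all genes then moved as well, to -0.46 in FC, -0.47 in NS and -0.81 in HC, and 11 members in FC lay above 0 and 34 below. Relative to that median of all genes, 21 members lay above and 24 below, both with TMM and without it.

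**Figure D4:**
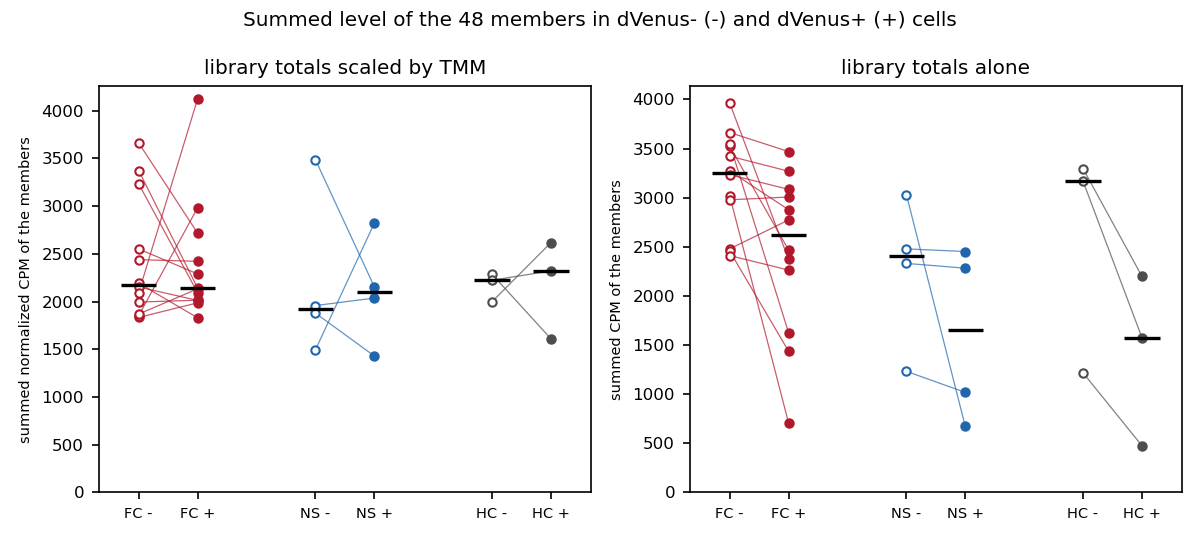
Summed level of the 48 members in dVenus- (open) and dVenus+ (filled) libraries, as normalized CPM with TMM scaling (left) and as CPM from library totals alone (right); lines join the libraries of 1 mouse and black bars are medians. With TMM scaling 7 of 12 FC mice go down, and from library totals alone 10 of 12 FC, 4 of 4 NS and 3 of 3 HC mice do.

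Promoter windows of 250 bases before an annotated start were available in RefSeq (GRCm38.p6) for 37 of the 48 members, 50 windows in all. A gene can have several starts, and a start can lie inside the gene. The cAMP response element TGACGTCA, read on both strands, occurred in 0 of these 50 windows and in 1.55% of all 32851 windows of the same length. Its shorter form TGACG, which also lies within the full element, occurred on either strand in 12 of the 50 windows, 24%, beside 17.8% of all. The ETS core CCGGAA occurred on either strand in 15 windows of 13 members, 30.0%, beside 12.0% of all windows. Of the 7 members with an unadjusted p below 0.05 in FC, 6 had a window, all but Chd3, and the core occurred in those of Brd9, shown above, and Smarca2 and Smarcc1, which stood on opposite sides of 0. Their matches are shown on the plus strand with their flanks, from chr19:26605043-26605072 for Smarca2 and chr9:110131786-110131815 for Smarcc1, with the core in capitals, and the cores began 105 and 226 bases before a RefSeq start. By the GENCODE positions the Smarcc1 match lies inside the gene (chr9:110117708-110240178), and Smarca2 starts at chr19:26605050, within the stretch shown. Neither core thus lies upstream of the whole annotated gene.
Smarca2: ctgcggcgcgtcTTCCGGcgcccgtggagg
Smarcc1: gacaaacggggcCCGGAAgagtcattcgta
A match is a run of letters and does not show that a factor binds there.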

How the data were processed

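Full-length cDNA of pooled cells was made with Smart-seq2, tagmented with Nextera XT and sequenced as single reads of 50 bases. The authors aligned reads to mm10 with TopHat2 2.0.13 and counted uniquely aligned reads per gene with HTSeq 0.6.0 and an NCBI annotation. The deposited values were raw counts per gene and library, with no molecular identifiers, so counts of reads are not counts of molecules. The 5 entries that name no gene were left out of library sizes (reads in no feature were 16.4 to 59.7% of those on genes, in no feature or ambiguous).

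The members, the lists of other genes and the motifs were chosen with earlier results of these data known. Counts were tested with edgeR 4.0.16 (TMM scaling, quasi-likelihood F test, two-sided) in R 4.3.3, in a separate fit for FC, NS and HC with the mouse as a block, as in the study's paired design. Genes needed 10 counts in at least 12, 4 or 3 libraries, and p-values were adjusted by the Benjamini-Hochberg method over all genes tested. Interactions were tested in 1 fit over the 38 libraries, with 10 counts in at least 3. Errors of log2 fold changes are standard errors, taken as the absolute log2 fold change over the square root of the F statistic. The 95% intervals are 1.96 standard errors on each side and are approximate. For Hdac7 in FC the interval of -3.03 to -0.034 left out 0 at an unadjusted p of 0.0544 in edgeR. The pairing comes from the animal: same-mouse deviations from the group means correlated with a median r of 0.0475 for the 12 FC pairs, -0.0152 for NS and 0.00724 for HC. Named were members called or with an unadjusted p below 0.05 in any group, the highest member of each role and 12 fixed symbols, and the others are given by their fold change or range, except 1 member that is not reported here. DESeq2 1.42.0 was an alternative. The FC fit was also run on counts simulated from FC means and totals without differences between mice. NS and HC were not simulated, so this does not show how the fits perform there. Gene lengths (joined exons) and positions are from the GENCODE annotation of GRCm38, which is not the annotation used for the counts. Promoter windows are from RefSeq. The single table of all libraries was not used because it holds a subset of the genes.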

Additional observations from a re-analysis of the deposited data

Results flagged for a closer look

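In 7 of the 58 groups of 4 NS libraries examined (28 named members and the summed level of the members, in each cell type), 1 library lay far from the other three. Chance gives about 1 in 20 for normally distributed values, and these values are not, with many at or near 0, so the 7 cannot be read against that share. Mouse 18 was the high library in 5 of them. In dVenus+ cells it had 37.0 normalized CPM of Sirt3 (the others 0 to 0.293), 13.1 of Sirt5 (0 to 1.30) and 78.0 of Smarcb1 (0 to 8.53). In dVenus- cells it had 340 normalized CPM of Hdac4 (0 to 4.55) and 253 of Sirt3 (0.371 to 18.9). Mouse 21 had 11.3 normalized CPM of Sirt5 (0 to 1.83) and 50.6 of Sirt7 (0 to 0.807) in dVenus- cells. The cause was not tested.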

How the results depend on the processing

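Of the log2 fold changes of named members under settings other than leaving out a mouse, 417 kept their direction and side of the threshold, 12 passed it, 2 lost it and 23 changed sign. The cause of the changes was not tested. Library totals without TMM, and leaving out the mice with Arc in dVenus- cells or with a dVenus+ library that stands apart, were chosen after seeing the data. Members called in FC, 1 as reported, numbered 8 with DESeq2, 2 without TMM, 3 with no replicate block, 3 without mice 4 and 7, 0 in the set of 4 mice alone and 0 in the set of 6 mice alone, where fewer mice entered, and 1 to 2 leaving out each mouse in turn (Chd3 was added without mouse 4 and Sirt5 without mouse 7). Other chromatin genes called in FC, 2 as reported, numbered 10 with DESeq2, 0 in either set alone, 1 with the older quasi-likelihood method, without the shallowest mice, with genes detected as a covariate, without the Arc mice and without mice 4 and 7, and 1 to 2 leaving out each mouse. DESeq2 called 2 members in NS and 2 in HC, 5 other chromatin genes in each, and 4, 8 and 4 members for the interactions FC against NS, FC against HC and NS against HC. The summed level in HC had a mean log2 ratio of -0.98 without TMM.

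Signs changed as follows on the log2 scale, none of them for Brd9 in FC. Without TMM, Brd8 was at -0.032, Chd4 -0.14, Hdac3 -0.049, Smarca4 -0.27 and Smarca5 -0.065 in FC, and Smarcc1 -0.064 in HC. In the set of 4 mice Brd8 was at -0.88, Chd2 0.23 and Smarca4 -0.38, and in the set of 6 Sirt3 0.60 and Smarcc2 0.19. With no replicate block Chd2 was at 0.16 and Smarcal1 0.017 in FC and Smarcc1 -0.89 in HC. Without the Arc mice Hdac1 was at 0.18, Sirt2 0.45 and Smarca4 -0.078, without mice 4 and 7 Hdac2 0.52, Hdac3 -0.15 and Sirt2 0.015, with the covariate Sirt2 0.015 and Smarca4 -0.077, and without the shallowest mice Smarca5 -0.023.

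Leaving out each mouse in turn gave, in FC, -2.45 to -2.13 for Brd9, -0.62 to 0.21 for Hdac2, -0.071 to 0.62 for Hdac3, -0.50 to 0.047 for Sirt2, -0.61 to 0.014 for Sirt3, -0.064 to 0.29 for Smarca4, -0.013 to 0.47 for Smarca5 and -0.33 to 0.091 for Smarcc2. In NS it gave -0.66 to 0.015 for Hdac11 and -0.73 to 0.012 for Smarca2. In HC, where 2 mice remained, it gave -2.37 to 1.12 for Brd9, -1.10 to 9.70 for Hdac5, -2.14 to 2.54 for Sirt7 and -1.01 to 2.98 for Smarcc1.

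Sirt5, Sirt1, Sirt4 and Hdac10 had fewer than 10 reads in most libraries.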
